A study of Oryctolagus cuniculus with 6 samples.

Results

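Glycolysis turns glucose into pyruvate in the cytosol, and 9 of its enzyme genes were followed here in smooth muscle cells of the rabbit basilar artery: HK2, PFKM, ALDOA, TPI1, GAPDH, PGK1, ENO1, LDHA and LDHB. They were found on the array by gene name or by the enzyme's full name in the probe description, which gave 23 of 43603 probes. All 9 genes had a probe that could be tested, of 7857 named genes tested. Vascular smooth muscle is known for making much of its lactate even when oxygen is at hand. Hexokinase traps glucose as its phosphate and phosphofructokinase commits it to breakdown. Aldolase and triosephosphate isomerase then yield the substrate of GAPDH, phosphoglycerate kinase and enolase carry it towards pyruvate, and lactate dehydrogenase exchanges pyruvate and lactate. The A subunit of lactate dehydrogenase predominates in skeletal muscle and the B subunit in heart.

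The ligated group was 3 female New Zealand White rabbits whose common carotid arteries were tied on both sides, which raises flow through the basilar artery. The sham group was 3 such rabbits whose carotid arteries were exposed and not tied. Basilar arteries were taken on day 5 in each group and digested with elastase and collagenase, cells were shaken loose, and total RNA was read on 6 single-colour Agilent arrays. Each array was read as 1 rabbit because the labels give 3 animals and 3 arrays a group, although no label states it. The p-values measure the spread between these samples.

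Values are log2 of the processed signal minus the 75th percentile of that array, called scaled log2 signal below. They compare arrays for a probe and not probes with each other. All ligated arrays shared a slide and all sham arrays another, so an effect of the slide and one of ligation cannot be told apart. Among 10 spike-in controls, 7 were lower on the ligated arrays, with a median shift of -0.81 in log2 after scaling, and the part of that shift in the results was not tested beyond the scaling alternatives given below. The ligated arrays did not share it equally. After scaling, the mean of the 8 controls well above background on all arrays was below every sham array on ligated 1 and ligated 2. On ligated 3 it was close to sham 2. Sham 2 and sham 3 were closer to each other (SD of the difference over tested probes 0.38) than any other pair of arrays (0.61 to 1.51). Values with sham 2 and sham 3 averaged into 1 sample are therefore also given. By the same SD, sham 1 was closer to ligated 1, 2 and 3 (1.05, 0.92 and 1.19) than to sham 2 or sham 3 (1.28 each). Ligated 3 was closer to sham 2 (0.96) than to ligated 1 (1.02), though closest to ligated 2 (0.94). The arrays thus did not group by treatment alone. Of 9 smooth muscle markers 8 were tested, and ACTA2, smooth muscle actin, was bright in both groups, at 7.23, 8.08 and 6.18 on the ligated arrays and at 8.87, 7.73 and 7.73 on the sham arrays. Transcripts of fibroblasts, leukocytes, endothelium and red cells were read as well. In such a mixture fewer cells of a type and less RNA per cell cannot be told apart.

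The sequences of the probes behind the results below show what each reading rests on. HK2 and GAPDH were each read by a single 60-base probe. LDHA was read by 5 overlapping probes, and the stretch common to all 5 is in capitals in the outermost pair shown here. A probe on chromosome 12 that the array design calls phosphoglycerate kinase 1 now has the name PGK2, the copy known from testis, in the reference table of gene names. All are written 5′ to 3′ as deposited.
HK2: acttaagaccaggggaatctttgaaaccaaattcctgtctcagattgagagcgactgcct
GAPDH: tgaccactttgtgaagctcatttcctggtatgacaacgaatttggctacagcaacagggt
LDHA, last in the transcript: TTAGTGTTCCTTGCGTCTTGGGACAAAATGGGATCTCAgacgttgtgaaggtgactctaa
LDHA, earliest in the transcript: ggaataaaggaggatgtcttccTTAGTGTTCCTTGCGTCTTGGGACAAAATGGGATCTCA
PGK2, labelled phosphoglycerate kinase 1: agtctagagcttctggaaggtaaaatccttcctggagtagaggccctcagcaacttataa

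In the oryCun2 coordinates of the array files the HK2 probe lies at chr2:111664962-111666390 on the minus strand and the GAPDH probe at chr8:32584296-32584468 on the plus strand. These spans of 1429 and 173 bases are longer than the 60 bases of a probe, so neither probe matches an unbroken run of the genome. The LDHA probe shown last in the transcript lies at chr12:101719768-101719826 (minus strand) and the PGK2 probe at chr12:39006461-39006520 (minus strand). No exon map of that build was used here. The 5 probes of LDHA share 38 bases, those of ENO1 share 56 and those of TPI1 share 55, so probes of these sets are repeat readings of 1 site and not separate evidence. None of the 23 probes shared a run of 20 bases with any probe outside its own gene, on either strand.

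HK2, the inducible muscle-type hexokinase that opens the pathway, was the 1 enzyme of the 9 that rose in ligated arteries. Its scaled log2 signal was -0.50, -0.99 and -2.11 on the ligated arrays, against -3.46, -3.46 and -3.69 on the sham arrays. The groups did not overlap, and ligated 3 was much nearer to the sham arrays than ligated 1 and ligated 2 were. Before scaling the probe had a processed signal of 128, 126 and 36.3 on the ligated arrays and of 20.1, 18.8 and 17.3 on the sham arrays, well above background on all 6. The means were -1.20 ± 0.83 in ligated and -3.54 ± 0.13 in sham arteries (SD, n = 3 each), a log2 change of 2.34 ± 0.41 (SE) or 5.05-fold, with an adjusted p of 0.0223 in limma over all tested probes. The call ended without sham 2, without sham 3, without ligated 1 and without ligated 2, where the highest adjusted p was 0.0936, and with sham 2 and sham 3 averaged (log2 change 2.32, adjusted p = 0.0841). It also ended with no scaling (2.16, adjusted p = 0.0526) and under the planned normexp background correction, where the change was 0.89 (adjusted p = 0.789) and limma called 0 probes of the whole array. With normexp after spots of high local background were left out, the change was 1.11 (adjusted p = 0.0231), so its size depended on how background was treated.

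Of the 9 enzymes, 1 was called higher, 0 lower and 8 were not past the threshold. That is 11.1%, beside 8.79% of all 7857 named genes called, 6.13% higher and 2.66% lower, and the share is near the background. Of 27410 probes 8.35% were called, 5.71% higher and 2.65% lower. The median change of the 9 enzymes was -0.12, beside 0.01 over all tested probes. The groups did not overlap for 5 enzymes, 2 higher (HK2 and LDHA) and 3 lower (ALDOA, GAPDH and LDHB) in ligated arteries, which is 55.6% of the 9, beside 35.2% of all named genes, 17.7% higher and 17.6% lower. All 9 were well above background on every array, so no enzyme entered the test through 1 group alone. Small changes were rarely called on simulated arrays with the spread of these data: 1% of probes with a log2 change of 1 and 37% at 2. Only 100 probes of each size were changed among 27381 there, far fewer than the 2290 called here. The adjustment was therefore stricter in the simulation, and these shares do not give the power of the present comparison.

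**Figure D1:**
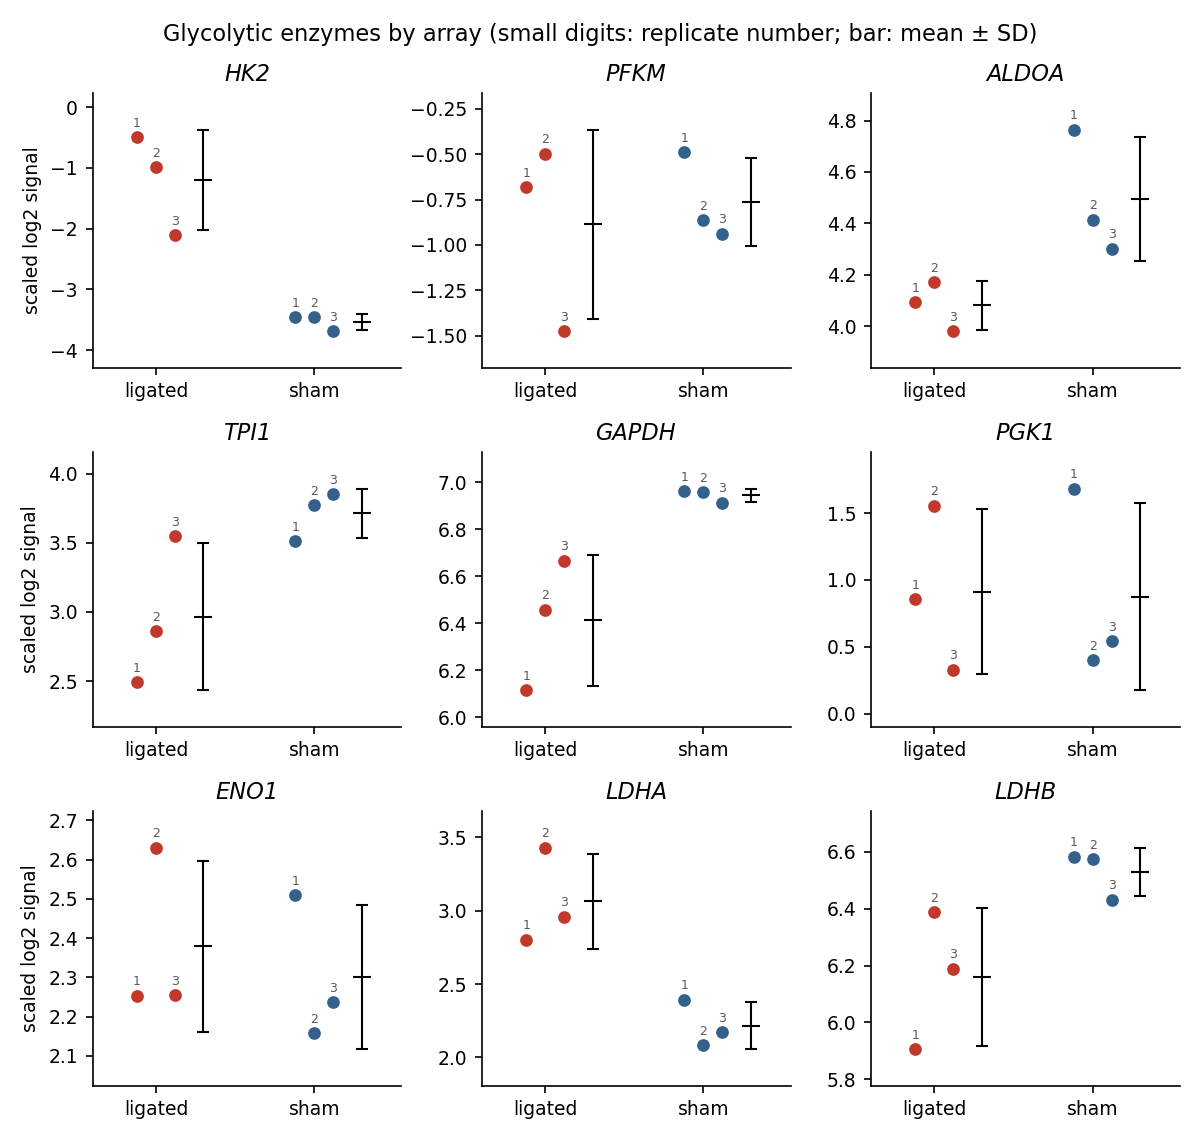
Scaled log2 signal (vertical axis, own range in each panel) of the 9 enzymes on the 3 ligated (red, left) and 3 sham (blue, right) arrays, with replicate numbers and the mean ± SD as a black bar. HK2 and LDHA are higher on every ligated array, ALDOA, GAPDH and LDHB lower on every ligated array, and the groups overlap in the other panels.

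Among the steps that follow, PFKM, the muscle subunit of phosphofructokinase, showed overlapping groups. Its brighter probe read -0.68, -0.50 and -1.48 on the ligated arrays and -0.49, -0.86 and -0.94 on the sham arrays. The log2 change was -0.12, with a 95% interval from -0.85 to 0.61 (adjusted p = 0.818), and it was -0.17 on the other probe, which lies in another part of the transcript. ALDOA, the muscle-type aldolase, read 4.09, 4.17 and 3.98 in ligated arteries and 4.76, 4.41 and 4.30 in sham arteries. Every ligated value lay below every sham value, but the change of -0.41 ± 0.20 (SE) did not pass (adjusted p = 0.237) and its interval ran from -0.89 to 0.06. With quantile normalization it was -0.20.

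TPI1, which interconverts the 3-carbon sugars that aldolase makes, read 2.49, 2.86 and 3.55 on the ligated arrays, against 3.51, 3.77 and 3.85 on the sham arrays. Ligated 1 and ligated 2 lay below all sham arrays, while ligated 3 lay within their range on this probe. On 3 of its 5 probes the groups did not overlap. The change was -0.74 ± 0.30 (SE, adjusted p = 0.170), with a range of -0.76 to -0.69 over its 5 overlapping probes, none of them called. Without ligated 3 it was -1.03 (adjusted p = 0.0533), and with array weights -0.87, the 1 alternative in which it was called (adjusted p = 0.0440).

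GAPDH, the dehydrogenase that is often used to scale other transcripts, read 6.11, 6.46 and 6.67 in ligated arteries and 6.96, 6.96 and 6.91 in sham arteries. The sham arrays were nearly equal, and each ligated array lay below them. The means were 6.41 ± 0.28 in ligated and 6.94 ± 0.03 in sham arteries (SD, n = 3 each), a change of -0.53 ± 0.20 (SE). The adjusted p was 0.156 and the 95% interval ran from -1.02 to -0.04. The sign of this change turned with the scaling: on the spike-in controls it was 0.22, where the median over all tested probes stood at 0.76. It was smaller with quantile normalization (-0.15, adjusted p = 0.627) and in the deposited table (-0.14, adjusted p = 0.640).

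PGK1, the ATP-yielding kinase after GAPDH, varied more within groups than between them. It read 0.85, 1.56 and 0.33 on the ligated arrays and 1.68, 0.40 and 0.54 on the sham arrays. Its change of 0.04 had an interval from -1.04 to 1.11 (adjusted p = 0.966), so differences of up to about 1 in log2 in either direction were not detectable here. The probe now assigned to PGK2 was well above background on 1 ligated array and 0 sham arrays and was not tested.

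ENO1, the widely expressed enolase, read 2.25, 2.63 and 2.25 in ligated arteries and 2.51, 2.16 and 2.24 in sham arteries. The groups overlapped and the change was 0.08 (adjusted p = 0.828), with an interval from -0.42 to 0.57. Over its 5 overlapping probes the change lay between 0.06 and 0.11. Within the groups, sham 1 and ligated 2 gave the highest values of PFKM, PGK1 and ENO1 alike in their groups.

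LDHA, the lactate dehydrogenase subunit of skeletal muscle, read 2.80, 3.43 and 2.96 on the ligated arrays, against 2.39, 2.08 and 2.17 on the sham arrays. All ligated values lay above all sham values, on each of the 5 probes. The means were 3.06 ± 0.33 in ligated and 2.22 ± 0.16 in sham arteries (SD, n = 3 each), a change of 0.85 ± 0.23 (SE) or 1.80-fold, which did not pass (adjusted p = 0.0712). The 5 probes gave changes from 0.76 to 0.92 with adjusted p from 0.0600 to 0.113 in limma. It passed in 5 of 21 alternatives, with quantile normalization (0.97, adjusted p = 0.0392), the deposited value table (0.97, adjusted p = 0.0393), trend and robust variances (0.85, adjusted p = 0.0425), array weights (1.00, adjusted p = 0.0196) and normexp without high-background spots (0.79, adjusted p = 0.0486). The quantile-normalized and deposited values were nearly equal and are not separate checks. With sham 2 and sham 3 averaged the adjusted p was 0.216.

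LDHB, the heart-type subunit, was lower on every ligated array. It read 5.91, 6.39 and 6.19 in ligated arteries and 6.58, 6.57 and 6.43 in sham arteries, and ligated 2 came close to the lowest sham array. The change was -0.37 ± 0.20 (SE, adjusted p = 0.281), with an interval from -0.84 to 0.11. With quantile normalization it was -0.0073 and in the deposited value table -0.0024, so no difference between the groups was left there.

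**Figure D2:**
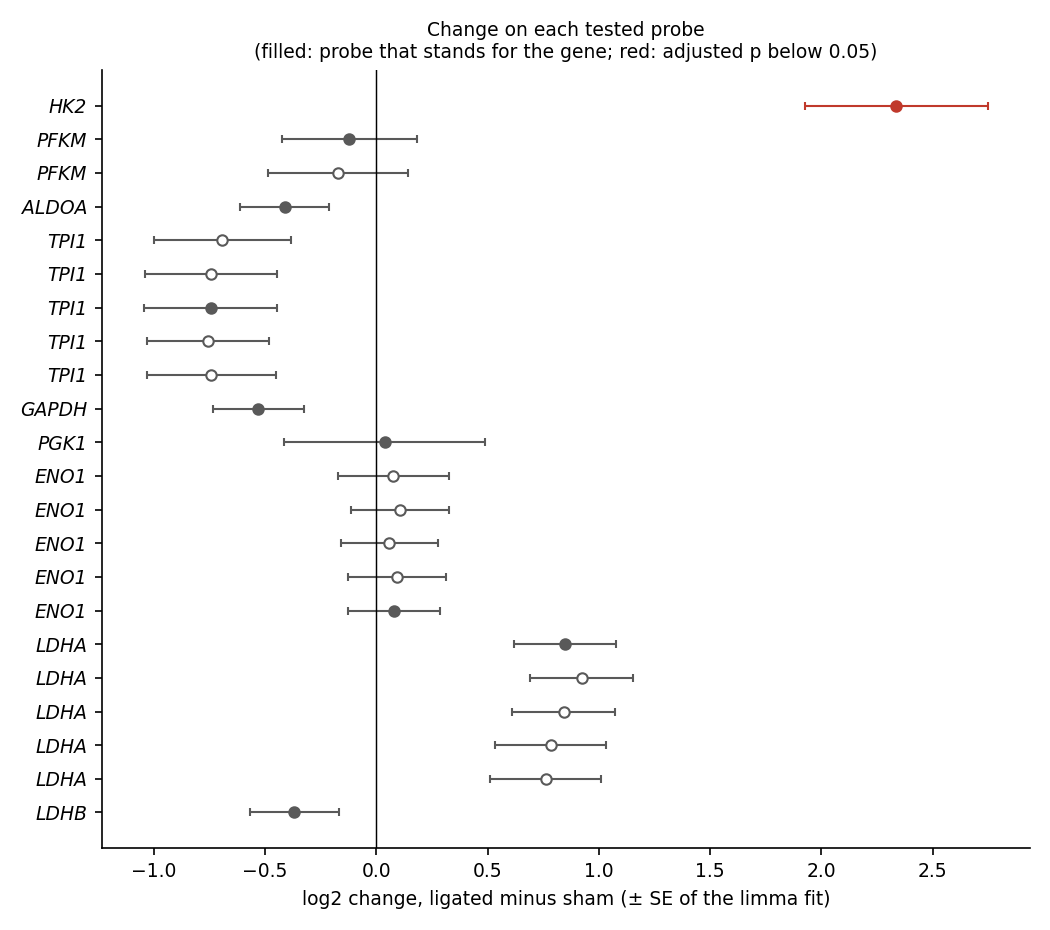
Log2 change, ligated minus sham, with the standard error of the limma fit (horizontal axis) for the 22 tested probes of the 9 enzymes. Filled points stand for their gene and red marks the 1 called probe, HK2 at 2.34. The 5 LDHA probes lie between 0.76 and 0.92, and the 5 TPI1 probes between -0.76 and -0.69.

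Isozymes of a step can change unequally, and their difference within an array does not depend on how arrays are scaled to each other by a constant. Of 5 pairs fixed for this comparison, 3 had both genes tested. ALDOC and ENO3 were well above background on 1 and on 0 of 6 arrays, so the ALDOA and ENO1 pairs gave no value. LDHA minus LDHB was -3.10, -2.96 and -3.23 on the ligated arrays, against -4.19, -4.49 and -4.26 on the sham arrays. The groups were far apart for their spread, -3.10 ± 0.13 in ligated and -4.31 ± 0.16 in sham arteries (SD, n = 3 each), so the LDHA signal gained 2.33-fold relative to that of LDHB, a shift of 1.22 in log2. The shift ranged from 1.13 to 1.28 when 1 array was left out.

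HK1, the constitutive hexokinase, read -0.31, -0.08 and -0.91 in ligated arteries and 0.33, -0.38 and -0.51 in sham arteries, with a change of -0.25 (adjusted p = 0.645). HK2 minus HK1 was -0.18, -0.91 and -1.20 on the ligated arrays and -3.79, -3.08 and -3.18 on the sham arrays. The groups did not overlap, and the shift was 2.59 in log2. PFKM minus PFKP, the muscle against the platelet-type phosphofructokinase, was -2.99, -3.28 and -3.35 in ligated arteries and -4.16, -4.39 and -4.31 in sham arteries, a shift of 1.08. In an exact two-sided permutation test each pair gave p = 0.1, or 0.1 adjusted over the 3 pairs, which is the smallest p that 3 arrays against 3 allow. With normexp the exact p was 0.3 for HK2 minus HK1 and 0.4 for PFKM minus PFKP.

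**Figure D3:**
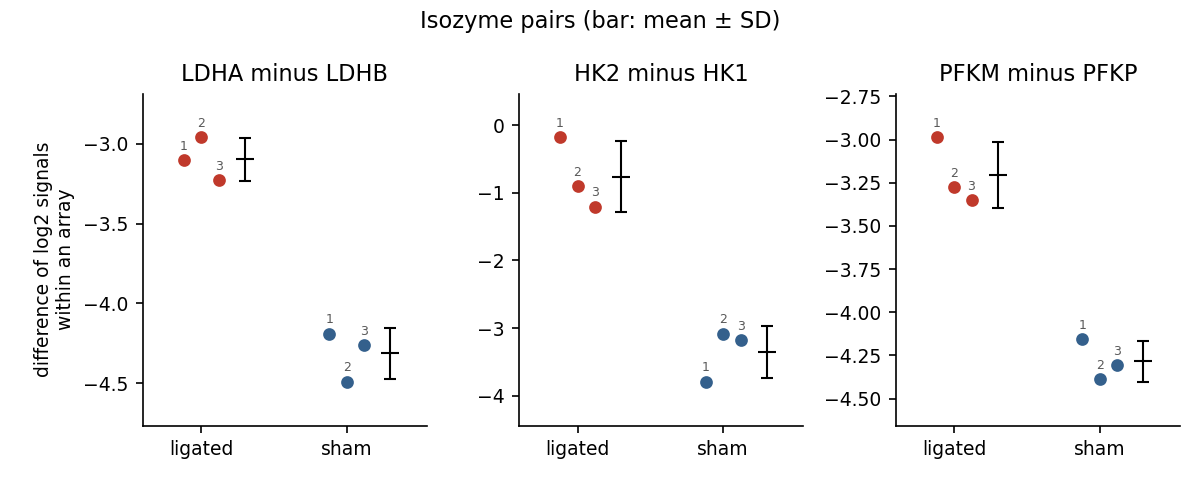
Difference between the log2 signals of 2 isozyme genes within an array (vertical axis) for LDHA minus LDHB, HK2 minus HK1 and PFKM minus PFKP. Points are the 3 ligated (red, left) and 3 sham (blue, right) arrays and black bars the mean ± SD, and in each panel the groups do not overlap.

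Among the other enzymes of the pathway, 9 of 20 listed genes were tested, of which none rose and 1 fell. Another 8 did not pass, and the median change over the 9 was -0.17. PFKP fell, with 2.30, 2.78 and 1.88 on the ligated arrays and 3.67, 3.53 and 3.37 on the sham arrays. Its change was -1.20 ± 0.27 (SE, adjusted p = 0.0444), a 2.30-fold fall with no overlap, while its 5 probes gave changes from -1.23 to -1.14 and 1 of them was called. That call ended without any 1 of the 6 arrays and with sham 2 and sham 3 averaged (highest adjusted p without 1 array 0.146). It ended in 15 of 21 alternatives in all, among them quantile normalization (adjusted p = 0.0617), the deposited table (0.0620), no scaling (0.111), no filter (0.0772) and spike-in scaling, where the change was -0.45 (adjusted p = 0.517). PKM, the pyruvate kinase of most tissues, had a change of -0.17 (adjusted p = 0.673) and GPI, the isomerase after hexokinase, one of -0.28 (adjusted p = 0.415).

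Transport of glucose and lactate had 9 of 13 listed genes tested, of which 1 rose and 1 fell. SLC2A4, which carries glucose in response to insulin, was 4.33-fold lower, with 2.56, 2.78 and 2.44 in ligated arteries and 4.80, 4.60 and 4.73 in sham arteries (adjusted p = 0.00349). All 6 of its probes were called, and its call ended with normexp and on spike-in scaling (-1.36, adjusted p = 0.0895). EMB, which encodes embigin, a membrane partner of lactate transporters, rose by 2.22 ± 0.31 in log2 (SE, adjusted p = 0.0117) on a probe read above background by 2 of the 3 sham arrays, so the size is uncertain. The call of EMB ended without sham 2 (adjusted p = 0.0513) and with normexp, where its change was 0.81. SLC2A1, the basal glucose transporter, read 2.63, 1.85 and 3.51 in ligated arteries and 4.62, 3.51 and 3.44 in sham arteries, a change of -1.19 that was not called (adjusted p = 0.186).

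Of the genes that set flux through phosphofructokinase and the use of pyruvate, 0 of 15 tested passed in limma. The nearest were PDK4, a kinase that shuts pyruvate dehydrogenase (change -1.51, adjusted p = 0.0885), and PFKFB3, which makes the activator of phosphofructokinase (change 1.00, adjusted p = 0.102). In the pentose phosphate pathway, which leaves glycolysis after hexokinase, 0 of 5 passed, with PGD, a dehydrogenase of that pathway, at -0.77 (adjusted p = 0.0895). Array weights called PDK4, PFKFB3 and PGD. PDK4 was also called with no scaling (-1.68, adjusted p = 0.0409) and PGD with normexp without high-background spots (-0.69, adjusted p = 0.0480).

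Of 13 tested glycogen genes 0 rose and 2 fell, beside 2.66% lower over all named genes. Their median change was -0.51, but -0.27 with the mean of all probes of a gene, and its sign turned with normexp (0.02) and on spike-in scaling (0.24). PYGM, the muscle glycogen phosphorylase, read -2.19, -2.23 and -2.36 in ligated arteries and -0.39, -1.38 and -1.13 in sham arteries, a change of -1.30 (adjusted p = 0.0427). PHKG1, the catalytic subunit of the kinase that switches on that phosphorylase, had a change of -1.78 (adjusted p = 0.0426). The changes were smaller with normexp (-0.13 for PYGM and -0.45 for PHKG1), with normexp without high-background spots (-0.60 and -0.96) and on spike-in scaling (-0.54 and -1.02), and neither was called there. Both calls also ended without sham 2, without sham 3 and without any 1 of the 3 ligated arrays (highest adjusted p 0.126 and 0.121), and with sham 2 and sham 3 averaged. In the gluconeogenesis list 1 of 2 tested genes fell. That gene was GPD1, which links glycolysis to glycerol phosphate, with a change of -1.30 (adjusted p = 0.0323) over 5 arrays, since its spot on ligated 3 was marked as an outlier and left out. The deposited value table keeps that spot and gave a change of 1.70 (adjusted p = 0.703), and spike-in scaling gave -0.23 (adjusted p = 0.735). The call of GPD1 also ended without any of the sham arrays, without ligated 1 or ligated 2, and with sham 2 and sham 3 averaged.

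Many glycolytic genes are known targets of the hypoxia-inducible factor, and of 16 tested hypoxia-responsive genes and their regulators 1 rose and 0 fell, with a median change of 0.18. P4HA1, a collagen prolyl hydroxylase subunit, read 0.42, 0.86 and 0.42 in ligated arteries and -0.21, -0.66 and -0.35 in sham arteries, a change of 0.97 (adjusted p = 0.0475) whose call ended without any 1 array (highest adjusted p 0.173) and with sham 2 and sham 3 averaged. With normexp it was 0.41, and 0.61 without high-background spots, not called in either. HIF1A, the factor's regulated subunit, had a change of 0.03 (adjusted p = 0.939). Its 3 probes gave changes from -0.0065 to 0.68, and none was called. These are RNA readings, and the protein and activity of the factor were not tested. Over the 7 lists, 2 of 69 tested genes rose and 5 fell, which is 10.1% and near the 8.79% of all named genes.

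**Figure D4:**
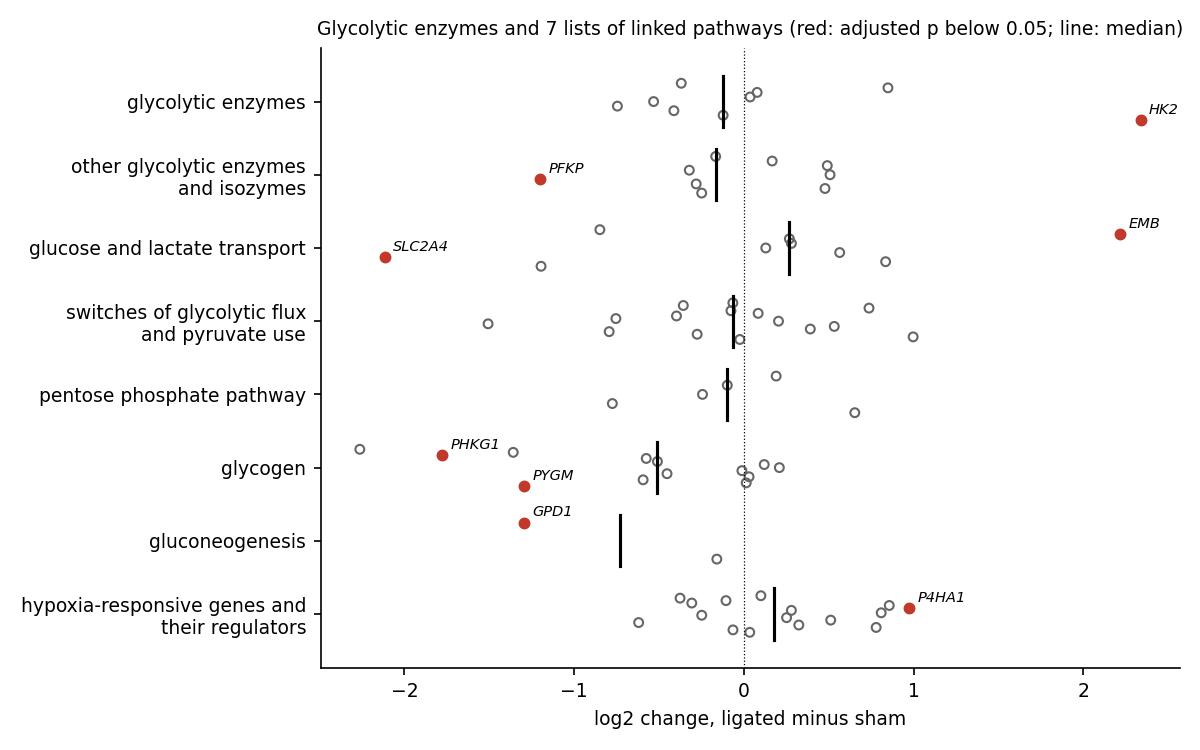
Log2 change, ligated minus sham (horizontal axis), of the 9 enzymes and of the tested genes in 7 lists of linked pathways. Red points passed an adjusted p of 0.05 and are named, open points did not, and black lines are list medians, which run from -0.73 in gluconeogenesis, where 2 genes were tested, to 0.27 in glucose and lactate transport.

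Red-cell transcripts varied widely between arrays. Of 6 erythroid markers 3 were tested, and their summed scaled signal was 28.5, 31.4 and 668 on the ligated arrays, against 189, 389 and 372 on the sham arrays. Ligated 1 and ligated 2 were low and ligated 3 was the highest of all. TPI1, GAPDH and BPGM, which makes the red-cell regulator of haemoglobin, were each highest on ligated 3 among the ligated arrays, BPGM with 2.75, 2.90 and 3.29 in ligated arteries and 3.27, 3.29 and 3.34 in sham arteries. Among the sham arrays, sham 1 had the lowest erythroid sum and the lowest TPI1 and BPGM. GAPDH went the other way there and was highest on sham 1, though nearly equal on all sham arrays. PKM, which is not among the erythroid markers, was also highest on ligated 3 among the ligated arrays. The part of the red-cell level in the TPI1 and GAPDH values was not tested.

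**Figure D5:**
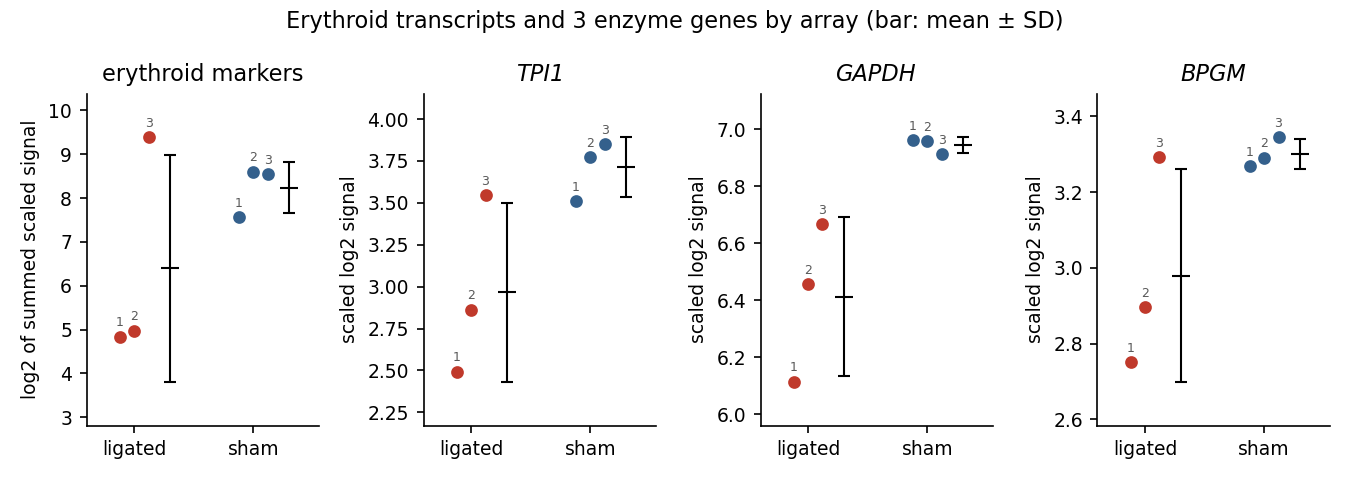
Log2 of the summed scaled signal of 3 erythroid markers (left panel) and scaled log2 signal of TPI1, GAPDH and BPGM on the 3 ligated (red, left) and 3 sham (blue, right) arrays, with the mean ± SD in black. Ligated 3 is the highest ligated array in each panel. Sham 1 is the lowest sham array in each panel except that of GAPDH, where it is the highest by a small margin.

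Smooth muscle markers moved with ligation too. Their summed scaled signal over the 8 tested ran from 485 to 1084 on the ligated arrays and from 1308 to 2132 on the sham arrays, and 2 of 8 fell. Ligated 3 had the lowest sum, and it was also the ligated array with the lowest HK2, PFKM, ALDOA and PGK1, but with the highest TPI1 and GAPDH. Between the groups HK2 went against the sum, being higher in ligated arteries where the sum was lower. Fibroblast markers summed to between 966 and 1134 on the ligated arrays and to between 321 and 410 on the sham arrays (3 of 4 tested rose). These sums were made up mostly of COL1A2. Markers of dividing cells summed to between 10.3 and 13.7 on the ligated and 1.19 and 1.34 on the sham arrays (4 of 4 tested rose). Macrophage markers overlapped, with 5.53 to 18.2 on the ligated and 5.41 to 12.8 on the sham arrays. Endothelial markers overlapped too (53.9 to 140 on the ligated and 49.9 to 101 on the sham arrays), as did neutrophil markers (2.30 to 5.94 on the ligated and 0.939 to 3.67 on the sham arrays). Striated muscle markers summed to between 117 and 343 on the ligated arrays and to between 272 and 540 on the sham arrays, sums made up mostly of ACTA1, and 1 of 4 tested fell. That gene was CKM, the muscle creatine kinase, with 0.70, 0.55 and 0.40 on the ligated arrays and 3.63, 2.88 and 2.69 on the sham arrays, 5.74-fold lower (adjusted p = 0.00632). Like CKM, SLC2A4, PYGM and PHKG1 were called lower without overlap, so a fall on the same arrays follows from these calls alone. ACTA1 ranked the 6 arrays in the same order as ACTA2, smooth muscle actin. Whether the ACTA1 probe also read ACTA2 was not tested, so the striated muscle sum need not measure striated muscle. The part of striated muscle transcripts in the values of SLC2A4, PYGM and PHKG1 was not tested. Of 5 neuron and glia markers 1 was tested, SYT1, and its scaled signal was at most 0.0730 on the ligated and 0.197 on the sham arrays. CKM, ACTA1 and TNNC2 were well above background on all 6 arrays, while MYH7, TNNT3 and MYL1 were not well above it on any. TNNI2 lay between them, well above background on 2 ligated and 2 sham arrays. What these other transcripts contributed to the HK2 and LDHA values was not tested.

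For each enzyme the most alike of 7524 other named genes over the 6 arrays was also listed, as a description of shared profile. Pearson's r of the best match lay between 0.99 and 1.00 for all 9. Each is the highest of 7524 values over only 6 arrays, so a high r is largely built in by the choice. For an enzyme whose groups separate, a difference between the groups in its match is partly built in too. Shared regulation was not tested. For HK2 it was AHCYL2 (r = 0.997), whose own change of 0.73 was not called (adjusted p = 0.0836). For LDHA it was TM4SF18 (r = 0.994), which rose by 1.83 in log2 (adjusted p = 0.0255). For GAPDH it was IDH3G (r = 0.999), a subunit of mitochondrial isocitrate dehydrogenase, with a change of -0.65 (adjusted p = 0.112). The best matches of the others were SQSTM1 for PFKM, COPS7A for ALDOA, NUDT1 for TPI1, GOLGA4 for PGK1, BIRC2 for ENO1 and ING1 for LDHB, and limma called none of these 6, of which the lowest adjusted p was 0.197.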

How the data were processed

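Total RNA was labelled with Cy3 and read on 6 arrays. Per the file headers and the submitters' processing notes, Agilent Feature Extraction 10.7 gave a processed signal per spot, which is an intensity corrected for background and spatial trend on its own array and not scaled to the other arrays. The deposited raw spot and local background signals are also intensity values. The deposited spot flags are other values, 0 or 1. The deposited table of array values holds log2 units with equal array medians (5.05), made by a step not given in the sources used here. Apart from GPD1, whose outlier spot it keeps, it gave nearly the results of quantile normalization. The HK2 change was 2.14 against 2.15, and 2116 against 2121 probes were called. Quantile normalization and the deposited table are therefore not separate checks.

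Outlier spots were left out, repeated spots averaged and the 75th percentile of each array subtracted. Between 58.7% and 63.7% of probes per array were well above background and 0 spots were saturated. Probes well above background on at least 3 of 6 arrays were tested with limma 3.58.1 (R 4.3.3), two-sided, with Benjamini-Hochberg adjustment over 27410 probes and a threshold of 0.05. On simulated data with 27381 probes the mean error of limma's log2 change was 0.01 at a true change of 1 and -0.05 at 2, with 2 false calls. The tested probe with the highest mean signal stood for a gene. Gene names came from the files and from a RefSeq table (assembly mOryCun1.1), from which no coordinates were taken: 23808 probes had 1 symbol, 252 several and 19543 none.

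The members, the 7 pathway lists and the 9 marker lists were chosen with earlier results of these data known. Named genes were all members, up to 4 called genes of each list with the smallest p (or up to 2 with values where none passed), and the best-correlated gene per member. HK1, PKM, GPI, BPGM, SLC2A1, HIF1A and the single marker genes were named after their values were seen. Alternatives changed background correction, scaling, filter, probe choice, starting values, variance model, blocks and arrays used. With 3 arrays a group, precision is set by the number of arrays. Some values and a probe sequence are not reported here.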

Additional observations from a re-analysis of the deposited data

How the results depend on the processing

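Over 21 alternatives the HK2 change kept its sign (0.89 to 3.09), and its call ended in 8 of them: normexp 0.89, no scaling 2.16, scan day as a block 2.26, sham 2 and sham 3 averaged 2.32, and leaving out sham 2, sham 3, ligated 1 or ligated 2. Only sham 3 had another scan day, so the scan day block is the same fit as leaving out sham 3 and not a separate check. Nor is the deposited table separate from quantile normalization, since their results were nearly equal. Without 1 array it ranged from 1.99 to 2.79 (adjusted p 0.0107 to 0.0936). The shifts of the 3 isozyme pairs kept their sign in every alternative that gave one, and that of HK2 minus HK1 was smallest under normexp (1.04). Median centring, no scaling and spike-in scaling cannot change a difference within an array, and the changes of filter left the same probes in use. These alternatives returned the main shifts exactly and are no check of them. Enzymes called numbered 0 with normexp, no scaling, the scan day block and the averaged sham arrays, 2 with normexp without high-background spots, quantile normalization, the deposited table and trend and robust variances, 3 with array weights, and 0 to 1 without 1 array. The median enzyme change was 0.63 on spike-in scaling and -0.32 to 0.14 without 1 array.

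Pathway-list genes called numbered 0 with normexp, 3 with no scaling, 2 with spike-in scaling, with no filter, with the scan day block and with averaged sham arrays, 20 with array weights, and 1 to 5 without 1 array, against 7. Probes called, 2290, numbered 0 with normexp (615 at an unadjusted p under 0.05), 1059 with no scaling, 1524 with no filter, 5488 with array weights, 552 with the scan day block, 595 with averaged sham arrays, and 552 to 2269 without 1 array. The cause of these moves was not tested.

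Signs turned on spike-in scaling for PFKM (0.63), ALDOA (0.34), TPI1 (0.0060), GAPDH (0.22) and LDHB (0.38), all below the median of 0.76 over all tested probes on that scaling. Other single genes whose sign turned were PFKM, PGK1, ENO1 and GPD1. PFKM was 0.0349 with normexp, 0.0895 with array weights and -0.32 to 0.17 without 1 array. PGK1 was -0.13 with normexp, -0.16 with median centring, -0.14 with no scaling, -0.13 with the scan day block, -0.17 with averaged sham arrays and -0.29 to 0.44 without 1 array. ENO1 was -0.0519 with normexp, -0.0017 with normexp without high-background spots, -0.12 with median centring, -0.10 with no scaling and -0.0470 to 0.18 without 1 array. GPD1 was 0.12 with normexp and 1.70 in the deposited table. List medians turned sign too, among them other glycolytic enzymes (0.32 with no filter), gluconeogenesis (0.79 in the deposited table) and hypoxia (-0.02 with median centring).

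Calls higher made up 68.3% of all calls, against 52.2% with median centring, 99.0% with spike-in scaling, 55.6% with normexp without high-background spots, 78.6% with no filter and 56.3% with array weights.

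Deviations of same-numbered arrays from their group means had correlations of 0.43, -0.57 and 0.58. These had no common sign, and they do not settle whether the numbers pair the arrays. With the replicate block 1295 probes and 4 pathway-list genes were called, 81.8% of the probes higher, and HK2 stayed called (2.34, adjusted p = 0.0249).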
